A study of Mus musculus with 9 samples.

Results

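Transcripts of 40 genes of DNA replication and mitosis were followed across 9 mouse RNA sequencing libraries. The genes came from a list of 20 replication genes and a list of 20 mitosis genes, named by function, and all 40 were found among the 56481 gene symbols of the deposited count table. The libraries fall into 3 groups of 3. Induced corneal endothelial cells (iCEC) were made from neural crest cells on gelatin, which near confluence were moved to DMEM/F12 with 5% knockout serum replacement (KSR), non-essential amino acids, 2-mercaptoethanol and SB431542 at 5 µM, which blocks the type I receptor of TGF-β. This medium was renewed every 2 days, clusters were seen by day 4 and colonies examined on day 12, and the day of RNA extraction is not given in the sources used here. Primary corneal endothelial cells (pCEC) and primary neural crest cells (pNCC) of mouse embryos at E13.5 were kept in DMEM with 10% fetal bovine serum, non-essential amino acids and glutamine, with no inhibitor named. All cells were cultured, and iCEC differ from pCEC and pNCC in medium as well as in cell type. Mouse strain, sex and the age of the pCEC donors are not given in the sources used here. The molecule is given as total RNA for pCEC 2 and pCEC 3 and as polyA RNA for the other 7 libraries. The labels do not say that replicates came from separate animals or cultures, so p-values speak only of the spread among these libraries, which may be technical.

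A cell that divides first copies its DNA and then separates the copies. The MCM2-7 helicase is loaded on replication origins by Cdc6 and Cdt1 in G1 phase and is activated with Cdc45 and the GINS complex at the start of S phase, when the sliding clamp Pcna tethers the polymerases and Rrm1, Rrm2, Tyms and Tk1 supply deoxynucleotides. Transcription of many of these genes rises at the end of G1 through E2F factors, of which E2f1 is one, while cyclins E1 and E2 drive entry into S phase. Mitosis genes peak later, in G2 and M phase, under Foxm1, B-Myb and the MuvB complex, and their products condense, attach and separate the chromosomes. In the adult cornea, endothelial cells divide little in the body but can re-enter the cycle in culture, whereas cells of the surface epithelium are renewed throughout life.

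The shallowest library, pCEC 3, held 27389292 counts and the deepest, iCEC 1, 47967113. Levels are given as CPM, counts scaled to library size by TMM over the 9 libraries, in which 3 counts came to 0.0633 to 0.121 CPM. The labels iCEC, pCEC and pNCC are used here as names of libraries, because marker genes did not all follow them. Summed CPM of 14 surface epithelium markers was 16950 to 24110 in iCEC, 34860 to 52950 in pCEC and 104.3 to 165.3 in pNCC. Krt12, the keratin of the corneal epithelium, was listed at 0, 0 and 0.0271 CPM in iCEC, at 8798, 11200 and 12328 CPM in pCEC and at 0 in each pNCC library. Col8a2, a collagen of the corneal endothelial basement membrane, had 0, 0.114 and 0.108 CPM in iCEC, 75.7, 164 and 41.6 CPM in pCEC and 17.3, 4.65 and 9.58 CPM in pNCC. The 15 corneal endothelium markers found summed to 2551 to 2615 CPM in iCEC, 1715 to 2268 CPM in pCEC and 1154 to 1201 CPM in pNCC. The 12 neural crest markers summed to 300.7 to 739.8, 231.5 to 374.1 and 460.8 to 643.0 CPM in the same order of groups, with Foxd3 at 0 in every iCEC library and Sox10 at 0 in iCEC 1, iCEC 3 and pCEC 1. The 11 mesenchyme markers summed to 161.9 to 484.7 CPM in iCEC, 970.2 to 9983 CPM in pCEC and 31120 to 45590 CPM in pNCC. Leukocyte markers (10 genes) summed to 16.78 to 55.52, 21.97 to 46.93 and 21.49 to 29.89 CPM in iCEC, pCEC and pNCC, and skeletal muscle markers (10 genes) to 2.359 to 7.679, 2.472 to 2.948 and 87.25 to 118.7 CPM. The surface epithelium, corneal endothelium and mesenchyme sums differed without overlap between all 3 groups, and the skeletal muscle sums set pNCC apart. The leukocyte sums overlapped across the groups, and the neural crest sums of iCEC overlapped those of both other groups. The part of these marker lists in the differences of replication and mitosis genes was not tested. In bulk RNA, fewer dividing cells and less RNA per dividing cell cannot be told apart.

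The levels of the replication and mitosis sets differed between libraries, and the ranges of the 3 groups overlapped in part. Each gene was expressed as its log2(CPM + 0.5) minus the mean of the pNCC libraries, and the median was taken over each set. For the mitosis set this median was -1.23 in iCEC 1, -0.94 in iCEC 2 and -4.23 in iCEC 3, then -1.34, -0.85 and -0.87 in pCEC 1 to 3, against -0.21, 0.22 and 0.01 in pNCC 1 to 3. For the replication set it was -0.90, -0.55 and -1.93 in iCEC, -0.54, -0.10 and -0.42 in pCEC, and -0.32, 0.13 and 0.21 in pNCC. The mitosis medians of all 6 iCEC and pCEC libraries lay below those of all pNCC libraries, whereas for the replication set pCEC 2 lay within the range of the pNCC libraries. Turned back from log2, the mitosis medians corresponded to 42.6%, 52.3% and 5.33% in iCEC and to 39.5%, 55.4% and 54.6% in pCEC. The replication medians corresponded to 53.7%, 68.4% and 26.2% in iCEC and to 68.7%, 93.5% and 74.7% in pCEC. These percentages include the 0.5 added to CPM and refer to the mean of the pNCC logs. In CPM without it, the median ratio of iCEC 3 to the pNCC mean was 4.41% in the mitosis set and 24.9% in the replication set. The mitosis median was the lower of the 2 in each iCEC library, with differences of -0.33, -0.39 and -2.30, and in each pCEC library, with differences of -0.80, -0.76 and -0.45, against 0.10, 0.09 and -0.19 in pNCC. These medians are descriptions of the lists and carry no test.

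**Figure D1:**
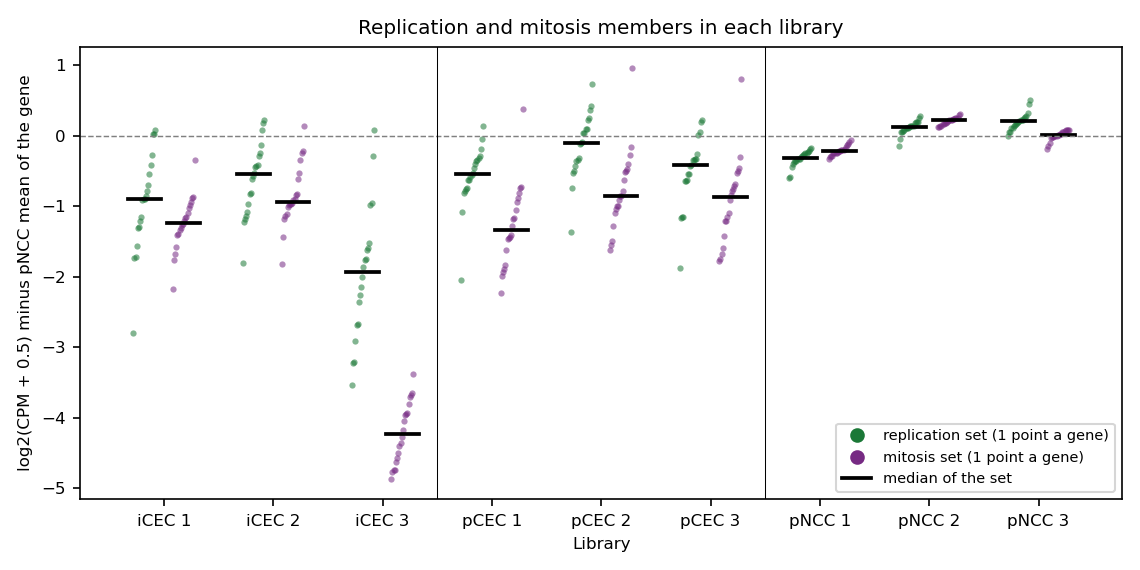
Each point is 1 gene in 1 library, plotted as log2(CPM + 0.5) minus the mean of the 3 pNCC libraries for that gene, with the replication set left of the mitosis set in each library and black bars at the medians. The mitosis median of iCEC 3 is -4.23, while those of the other iCEC and pCEC libraries lie between -1.34 and -0.85.

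Within iCEC, 1 library stood apart, and not only in these genes. Over all genes compared, the mean chi-square per gene of the counts was 556.9 between iCEC 1 and iCEC 3 and 681.8 between iCEC 2 and iCEC 3. It was 239.9 between iCEC 1 and iCEC 2. How many of all genes were lowest in iCEC 3 was not counted. iCEC 3 was the lowest of the 3 iCEC libraries in 20 of 20 mitosis genes and in 17 of 20 replication genes. Its mitosis genes were at 3.46% to 16.4% of the mean of iCEC 1 and iCEC 2, with a median of 9.92%. Kif23, a kinesin of the central spindle needed for cytokinesis, was the lowest at 3.46%, and Top2a, the topoisomerase that untangles replicated DNA, was the highest at 16.4%. The replication genes spread more widely, over 10.8% to 125% with a median of 37.6%. Rrm2, the S-phase subunit of ribonucleotide reductase, was at 10.8%, Ccne1 (cyclin E1) at 14.8% and Mcm10, which helps to activate the helicase, at 15.4%. Pcna was at 121%, Mcm6 at 125%, Mcm7 at 95.8% and Mcm2 at 76.6%. In iCEC 3, then, transcripts of the MCM2, MCM6 and MCM7 subunits and of the clamp were above the mean of the other iCEC libraries or at most 1.31-fold below it. The other subunits of the same helicase, Mcm3, Mcm4 and Mcm5, were at 44.6%, 40.1% and 33.8%. Every mitosis gene was at least 6.1-fold lower, and so were Rrm2, Ccne1 and Mcm10 of the replication set.

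**Figure D2:**
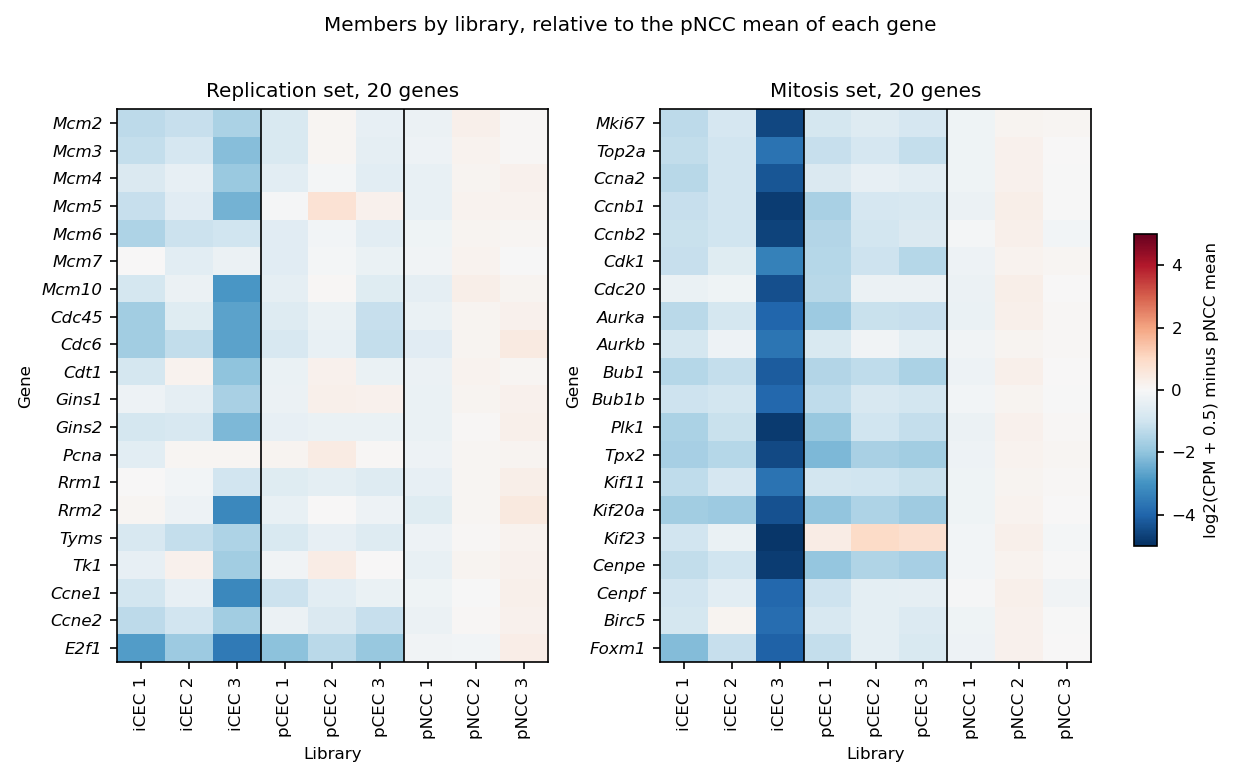
Colour gives log2(CPM + 0.5) minus the pNCC mean of the gene for each of the 40 genes (down) and 9 libraries (across, iCEC, pCEC and pNCC), with blue for lower and red for higher. The mitosis column of iCEC 3 is the darkest block, and Kif23 is the mitosis gene in red in all 3 pCEC libraries.

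The first comparison asked how the replication set differed between iCEC and pNCC. Of the 20 genes, 7 fell in iCEC, 0 rose and 13 did not pass (edgeR quasi-likelihood test with Benjamini-Hochberg adjustment over 16293 genes, threshold 0.05). Over all genes tested, 15.1% were called lower and 31.3% in either direction. The median log2 fold change of the set was -1.17, against 0.05 for all genes tested, and all 20 genes had a negative value. The iCEC and pNCC libraries did not overlap in 12 of the 20, all with iCEC lower, as was so of 25.5% of all genes. Without iCEC 3, 9 of the 20 were called lower against 21.4% of all genes. Without iCEC 1, 4 of the 20 were called lower, against 13.3% of all genes. Without pNCC 1, pNCC 2 and pNCC 3 in turn, 3, 3 and 2 were called lower, against 7.61%, 7.12% and 8.36% of all genes.

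The 2 calls with the smallest adjusted p were helicase subunits. Mcm2 (chr6:88883474-88898780, minus strand, mm10) had 35.7, 40.2 and 29.1 CPM in iCEC libraries 1 to 3, against 72.1, 106 and 92.0 CPM in pNCC libraries 1 to 3. All iCEC libraries were below all pNCC libraries, and Mcm2 was 2.61-fold lower in iCEC (edgeR adjusted p = 0.00726). Mcm6 (chr1:128331590-128359664, minus strand) had 44.2, 61.7 and 66.0 CPM in iCEC, against 112, 142 and 141 CPM in pNCC. The groups were again apart, with a log2 fold change of -1.24 ± 0.21 (SE) and an edgeR adjusted p of 0.00726. Mcm2 and Mcm6 were called with any 1 library left out, with adjusted p values for Mcm2 of 0.00512 to 0.0382. The remaining 5 calls were each lost without at least 1 library.

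E2f1, the transcription factor that activates S-phase genes, gave the largest fold change of the set. It had 7.09, 14.5 and 4.07 CPM in iCEC, against 46.1, 47.0 and 65.7 CPM in pNCC (chr2:154559407-154569892, minus strand). The highest iCEC library was far below the lowest pNCC library, and the log2 fold change was -2.63 ± 0.52 (edgeR adjusted p = 0.013, and 0.0513 without pNCC 3). Without iCEC 2 the log2 fold change of E2f1 was -3.29. The other calls were Tyms (thymidylate synthase, 2.29-fold lower, edgeR adjusted p = 0.0184), Ccne2 (cyclin E2, 2.63-fold, 0.0213), the licensing factor Cdc6 (3.83-fold, 0.0366) and Mcm3 (2.51-fold, 0.0421). Ccne2 had 7.28, 9.27 and 5.15 CPM in iCEC and 15.3, 19.4 and 21.7 CPM in pNCC, with no overlap, and its adjusted p was 0.0565 to 0.0908 without iCEC 1 or any 1 of the pNCC libraries. Mcm3, Cdc6 and Tyms were lost without pNCC 1, pNCC 2 or pNCC 3, at adjusted p of 0.0504 to 0.131, and Mcm3 and Cdc6 also without iCEC 1, at 0.0959 and 0.0914.

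Among the 13 that did not pass, Pcna had 41.6, 64.6 and 64.3 CPM in iCEC and 50.8, 65.6 and 67.1 CPM in pNCC. The groups overlapped, and the log2 fold change was -0.14 ± 0.23 (edgeR adjusted p = 0.692). Ccne1 had 17.6, 24.8 and 3.14 CPM in iCEC and 28.8, 32.6 and 39.99 CPM in pNCC, without overlap, at a log2 fold change of -1.15 ± 0.70 (edgeR adjusted p = 0.262). Cdc45, the helicase cofactor, and Gins2, a GINS subunit, were at -1.51 and -1.27, and their adjusted p values were 0.104 and 0.0911. Mcm10 stood at -1.09, the licensing factor Cdt1 at -0.66, Gins1 at -0.77, Rrm1, the large subunit of ribonucleotide reductase, at -0.34, Rrm2 at -0.65 and thymidine kinase Tk1 at -0.47, with adjusted p values between 0.298 and 0.578. Of the exonic bases of Gins2, 67.3% also lie in Gse1 on the opposite strand, and 17.4% of those of Ccne2 lie in Ints8. The sources used here do not say whether counting used the strand, so reads of such pairs may not be told apart.

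The comparison of the mitosis set between iCEC and pNCC gave no call. All 20 genes had negative log2 fold changes, between -2.30 and -0.82 with a median of -1.60, and in 18 of 20 every iCEC library was below every pNCC library, as in 25.5% of all genes. Of the 20, 0 passed in edgeR, 3 had an unadjusted p under 0.05 and 5 were called lower by the DESeq2 Wald test, which called 20.4% of all genes lower. The median SE of a fold change was 0.80 in this set, against 0.48 in the replication set. Without iCEC 3, which stood apart in these same genes, 16 of the 20 were called lower, against 21.4% of all genes, and the median was -1.10. Without iCEC 1, 0 were called, where 13.3% of all genes were called lower. Without iCEC 2, 1 was called lower, where 2356 genes in all were, against 2463 (15.1%) with all 6 libraries. Without any 1 pNCC library 0 were called, where 7.12% to 8.36% of all genes were called lower. The 4 that did not pass without iCEC 3 were Cdc20, Aurkb, Kif23 and Birc5.

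Mki67, the proliferation marker Ki-67 that coats mitotic chromosomes, had 79.3, 112 and 7.89 CPM in iCEC, against 171, 216 and 210 CPM in pNCC. No iCEC library reached the pNCC range, and iCEC 3 was 12.1-fold below the mean of the other iCEC libraries. The log2 fold change was -1.58 ± 0.85 with an edgeR adjusted p of 0.211, and -1.08 with an adjusted p of 0.0104 without iCEC 3. Top2a had 93.0, 113 and 16.9 CPM in iCEC and 189, 255 and 226 CPM in pNCC, again without overlap. Its log2 fold change was -1.58 ± 0.67 (edgeR adjusted p = 0.125, and 0.00624 without iCEC 3). Foxm1, the factor that activates G2 and M phase genes, had 13.0, 27.1 and 3.17 CPM in iCEC and 51.1, 70.3 and 61.0 CPM in pNCC. All iCEC libraries were lower, at -2.07 ± 0.74 (edgeR adjusted p = 0.0794, and 0.0147 without iCEC 3).

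Kif20a and Tpx2, both of the spindle, and Foxm1 had the largest fold changes of the set. Kif20a, a kinesin of the late spindle and of cytokinesis, was at -2.30 ± 0.70 with the smallest adjusted p of the set, 0.051, and 29.3% of its exonic bases also lie in Cdc23 on the opposite strand. Tpx2, which builds spindle microtubules and activates Aurora A, was at -2.07, and the mitotic kinase Plk1 at -1.88. The checkpoint kinases Bub1 and Bub1b were at -1.84 and -1.49, the Aurora kinases Aurka and Aurkb at -1.64 and -1.05, and the spindle kinesin Kif11 at -1.54. Cyclins A2, B1 and B2 (Ccna2, Ccnb1, Ccnb2) were at -1.69, -1.62 and -1.61 and their kinase Cdk1 at -1.34. The kinetochore proteins Cenpe and Cenpf were at -1.65 and -1.26, and the smallest differences were those of Birc5 (survivin, of the Aurora B complex) at -0.82 and of Cdc20, an activator of the anaphase-promoting complex, at -0.85. In iCEC 3, Plk1, Bub1 and Cenpe each had 1.74 CPM.

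**Figure D3:**
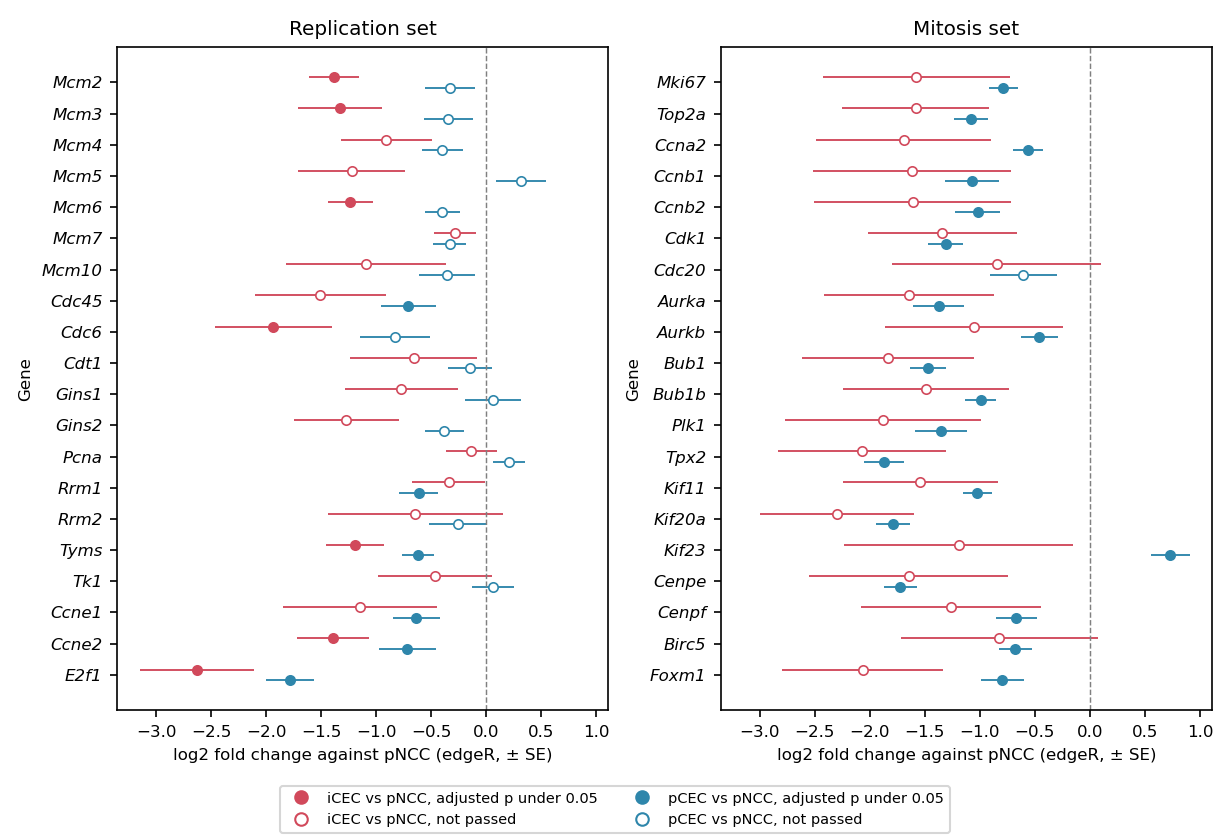
Points are edgeR log2 fold changes against pNCC with bars of 1 SE for iCEC (red) and pCEC (blue), filled where the adjusted p was under 0.05 and open where not, in the replication set (left) and the mitosis set (right). The iCEC bars are wide in the mitosis set, at a median SE of 0.80 against 0.17 for pCEC, and Kif23 is the filled point to the right of 0.

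In the second comparison, between pCEC and pNCC, most of the mitosis set was called. Of the 20 mitosis genes, 18 fell in pCEC, 1 rose (Kif23) and 1 did not pass (Cdc20, edgeR adjusted p = 0.122). Over all 16608 genes tested, 32.2% were called lower, 30.3% higher and 62.5% in either direction. The median log2 fold change of the set was -1.02, against -0.01 for all genes, and in 17 of 20 every pCEC library was below every pNCC library, as in 36.3% of all genes. The pCEC libraries lay close together, with a median SE of 0.17. With any 1 library left out, 17 of the 19 calls held, the exceptions being Aurkb (adjusted p 0.101 to 0.164 without pCEC 1, pCEC 3, pNCC 2 or pNCC 3) and Cenpf (0.0614 without pNCC 2). In a fit over all 9 libraries, which shares 1 estimate of the spread with iCEC, 2 of the 20 were called lower, against 23.3% of all genes. With pCEC 1, labelled polyA RNA, as the only pCEC library, the median log2 fold change of the set was -1.36.

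Kif20a, Cenpe and Tpx2 had the smallest adjusted p values. Kif20a had 19.7, 26.9 and 22.7 CPM in pCEC and 68.7, 90.1 and 81.0 CPM in pNCC. The pCEC libraries were all far below, at -1.79 ± 0.15 (edgeR adjusted p = 5.75e-05). Cenpe, a kinesin that aligns chromosomes, had 15.2, 20.8 and 18.3 CPM in pCEC and 53.3, 67.5 and 58.1 CPM in pNCC, a log2 fold change of -1.72 ± 0.15 (edgeR adjusted p = 6.1e-05). Tpx2 had 27.3, 41.8 and 38.2 CPM in pCEC and 109, 146 and 138 CPM in pNCC, the largest fall of the set at -1.87 ± 0.18 (edgeR adjusted p = 0.00011). In none of the 3 genes did the groups overlap.

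Other mitosis genes fell less. Mki67 had 108, 128 and 110 CPM in pCEC and 171, 216 and 210 CPM in pNCC, 1.73-fold lower (edgeR adjusted p = 0.00149). Top2a had 98.4, 123 and 95.6 CPM in pCEC and 189, 255 and 226 CPM in pNCC, 2.11-fold lower (edgeR adjusted p = 0.000708). Foxm1 had 26.3, 43.4 and 35.4 CPM in pCEC and 51.1, 70.3 and 61.0 CPM in pNCC, 1.74-fold lower (edgeR adjusted p = 0.00903). In these 3 genes every pCEC library was below every pNCC library. The others that fell ranged from Aurkb, 1.38-fold lower, over Ccna2 (1.48-fold), Cenpf (1.59-fold), Birc5 (1.60-fold), Bub1b (1.99-fold), Ccnb2 (2.03-fold), Kif11 (2.03-fold), Ccnb1 (2.11-fold), Cdk1 (2.49-fold), Plk1 (2.56-fold) and Aurka (2.59-fold) to Bub1, 2.78-fold lower.

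Of the replication set, 6 of 20 genes fell in pCEC, 0 rose and 14 did not pass, a share close to the 32.2% of all genes called lower. The median log2 fold change was -0.37, and 16 of 20 were negative. E2f1 had 12.3, 19.96 and 13.9 CPM in pCEC and 46.1, 47.0 and 65.7 CPM in pNCC, 3.45-fold lower with no overlap (edgeR adjusted p = 0.000345). Tyms had 19.8, 25.1 and 21.6 CPM in pCEC and 28.7, 35.6 and 38.2 CPM in pNCC, 1.54-fold lower (edgeR adjusted p = 0.00761). Rrm1 had 127, 138 and 126 CPM in pCEC and 148, 212 and 238 CPM in pNCC, 1.53-fold lower (edgeR adjusted p = 0.0192). The groups were apart in all 3 genes. Ccne1, at 15.5, 23.1 and 26.6 CPM in pCEC and 28.8, 32.6 and 39.99 CPM in pNCC, was 1.56-fold lower (edgeR adjusted p = 0.0325). Ccne2, at 14.9, 11.0 and 8.08 CPM in pCEC and 15.3, 19.4 and 21.7 CPM in pNCC, was 1.65-fold lower (0.0445), and Cdc45 was 1.63-fold lower (0.0391).

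E2f1 and Tyms were called with any 1 library left out, and the other 4 were each lost without at least 4 of the 6 libraries. Without pNCC 2 or pNCC 3, 2 of the 20 were called lower, against 27.4% and 28.7% of all genes. Without pCEC 1 or pCEC 3, 3 were called lower, against 31.4% and 28.0%, and without pNCC 1, 10, against 28.6%. The fit over all 9 libraries called 1 lower, against 23.3% of all genes. Scaling by library totals in place of TMM, which moved the median log2 fold change of all genes by -0.13, called 11 lower, against 35.4%. Log2 fold changes above 0 were those of Mcm5 (0.31), Pcna (0.20), Tk1 (0.06) and Gins1 (0.06), none of which passed, and those of Tk1 and Gins1 were below 0 with library totals (-0.067 and -0.072). Pcna had 67.2, 81.2 and 62.9 CPM in pCEC and 50.8, 65.6 and 67.1 CPM in pNCC, which overlapped. The rest that did not pass were negative, from Cdc6 at -0.83 and an adjusted p of 0.0551, over Mcm10 at -0.36 and Rrm2 at -0.25, to Cdt1 at -0.15.

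The MCM2-7 helicase shows how members of 1 complex differed. Its 6 subunits act as a ring with 1 copy of each, and their transcripts were compared per length, as CPM per kilobase of annotated exon. The length took in the exons of all annotated transcripts of a gene, 6956 bases for Mcm2 and 3589 to 4666 for the other subunits. The order of the subunits depends on this length. In CPM not divided by length, Mcm2 was above Mcm3 in every pCEC and pNCC library, and below it only in iCEC 2. Mcm2 had the lowest mean level of the 6 in each group, at 5.03 ± 0.81 in iCEC, 10.3 ± 3.1 in pCEC and 12.9 ± 2.4 in pNCC (SD, n = 3). In pNCC the means rose over Mcm5 (17.4 ± 3.6), Mcm7 (20.9 ± 2.7), Mcm3 (21.5 ± 3.3) and Mcm4 (24.7 ± 5.1) to Mcm6 (28.3 ± 3.7), and neighbours in this order lay within the larger of their SDs, except Mcm2 and Mcm5. In iCEC the means ran over Mcm5 (7.46 ± 4.14), Mcm3 (8.64 ± 3.66), Mcm6 (12.3 ± 2.5) and Mcm4 (13.2 ± 5.9) to Mcm7 (17.6 ± 3.4), with all neighbours within the larger of their SDs. In pCEC they ran over Mcm7 (16.6 ± 2.9), Mcm3 (17.01 ± 5.30), Mcm4 (18.7 ± 3.4) and Mcm6 (21.4 ± 3.9) to Mcm5 (21.6 ± 6.2), with neighbours within the larger of their SDs, except Mcm2 and Mcm7.

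In scaled counts the subunits moved unequally. Mcm7 had 94.0, 63.7 and 75.6 CPM in iCEC, 61.5, 86.7 and 72.4 CPM in pCEC and 81.2, 105 and 91.6 CPM in pNCC. Its groups overlapped, and the log2 fold changes of -0.29 ± 0.20 in iCEC and -0.33 ± 0.15 in pCEC did not pass (edgeR adjusted p = 0.314 and 0.0902); 12.6% of its exonic bases are shared with other genes. Mcm5 had 30.5, 45.9 and 12.9 CPM in iCEC, 66.1, 114 and 79.4 CPM in pCEC and 52.7, 78.2 and 77.1 CPM in pNCC. It was thus low in all iCEC libraries, at -1.22 ± 0.49 against pNCC (edgeR adjusted p = 0.107, and 0.0435 without iCEC 3), and overlapped pNCC in pCEC. Mcm3 had 34.6, 44.9 and 17.7 CPM in iCEC, 46.6, 85.6 and 59.2 CPM in pCEC and 67.4, 91.5 and 83.6 CPM in pNCC. Mcm4 had 53.4, 65.2 and 23.8 CPM in iCEC, 60.5, 81.0 and 59.9 CPM in pCEC and 67.8, 96.4 and 102 CPM in pNCC, and its iCEC change of -0.91 ± 0.41 did not pass (edgeR adjusted p = 0.147). Against pNCC, the pCEC log2 fold changes of Mcm2, Mcm3, Mcm4 and Mcm6 were -0.33, -0.35, -0.40 and -0.40, and none passed.

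**Figure D4:**
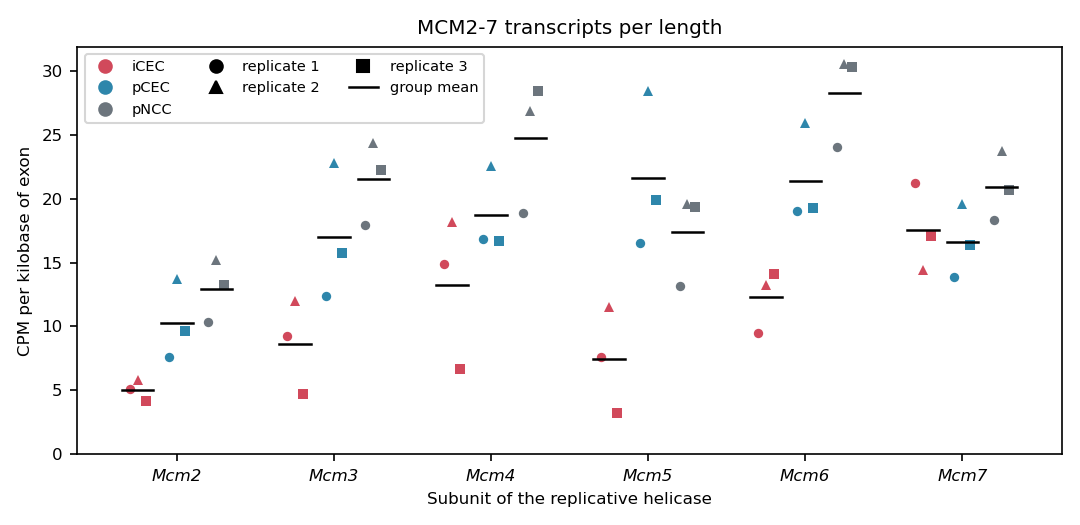
Transcript levels of the 6 helicase subunits in CPM per kilobase of annotated exon, with 1 symbol per library, iCEC left of pCEC and pNCC, and black bars at the group means. Mcm2, with the longest annotated exons of the 6, has the lowest mean in each group. Mcm7 overlaps between all 3 groups, and Mcm6 in iCEC (9.47 to 14.1) lies below pCEC and pNCC.

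The third comparison set iCEC directly against pCEC. Of the replication set, 2 of 20 genes fell in iCEC, 0 rose and 18 did not pass, where 9.92% of all 16278 genes were called lower and 20.4% in either direction. Both were helicase subunits. Mcm2, at 35.7, 40.2 and 29.1 CPM in iCEC and 52.8, 95.2 and 66.9 CPM in pCEC, was at -1.06 ± 0.27 (edgeR adjusted p = 0.0357). Mcm6, at 44.2, 61.7 and 66.0 CPM in iCEC and 89.0, 121 and 90.02 CPM in pCEC, was at -0.83 ± 0.23 (edgeR adjusted p = 0.0477). All iCEC libraries were below all pCEC libraries in both, but either call was lost without iCEC 1, iCEC 2, or any 1 pCEC library, at adjusted p of 0.05 to 0.119 for Mcm2 and 0.0704 to 0.175 for Mcm6. Mcm5 had the largest log2 fold change, -1.56 ± 0.48 (edgeR adjusted p = 0.0636). Of 20, 7 were lower in iCEC without overlap, against 21.6% of all genes, and 0 were higher without overlap, against 22.3%. The median log2 fold change was -0.72, against 0.04 for all genes. Without iCEC 3, 3 of 20 fell (Mcm2, Mcm5 and Mcm6), against 12.9% of all genes, and 1 rose (Rrm1, at 0.54 and an edgeR adjusted p of 0.0418), against 15.8%.

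Of the mitosis set, 0 of 20 genes passed between iCEC and pCEC in edgeR, 0 had an unadjusted p under 0.05 and 0 were called by DESeq2. The median log2 fold change was -0.54 with iCEC 3 and -0.01 without it. The median SE of a fold change was 0.77. Cdk1 was at -0.06 ± 0.64 and Cenpe at 0.04 ± 0.86, while Ccna2 was at -1.16 ± 0.76 and Foxm1 at -1.30 ± 0.70. None of these values shows that the groups are alike. Without iCEC 3, 1 of 20 was called lower, Kif23, against 12.9% of all genes, and 9 of 20 had a log2 fold change above 0, against 1 with all libraries.

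Kif23 was singled out after its values were seen. It had 20.1, 31.6 and 0.895 CPM in iCEC, 52.0, 78.8 and 70.4 CPM in pCEC and 36.4, 47.6 and 37.1 CPM in pNCC (chr9:61915905-61946774, minus strand). Every iCEC library was thus below, and every pCEC library above, all pNCC libraries. It rose 1.66-fold in pCEC against pNCC (log2 fold change 0.73 ± 0.18, edgeR adjusted p = 0.00836), a call lost in the fit over all 9 libraries (0.516) and with pCEC 1 as the only pCEC library (0.178, at 0.37), and was at -1.19 ± 1.04 in iCEC against pNCC (edgeR adjusted p = 0.426). Both contrasts share the pNCC libraries, so the direct one is the test of the difference: iCEC against pCEC was at -1.96 ± 1.03 (edgeR adjusted p = 0.228), and at -1.36 ± 0.28 without iCEC 3 (edgeR adjusted p = 0.0137).

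Promoter sequences were searched for 3 short elements, because the sets are known to be read by different factors. The E2F-type element was taken as TTGGCGC or in the variant form TTCCCGC, or with the letters TTCGCGC, or with the letters TTGCCGC, the cell cycle genes homology region (CHR, the element of MuvB complexes) as TTTGAA or alternatively TTCGAA, and the CCAAT box, bound by NF-Y, as CCAAT. Both strands were read and overlapping matches were counted. RefSeq windows of 250 bases before to 50 after the start (GRCm38.p6) were found for 31 of the 40 genes, 16 replication and 15 mitosis genes, and for 27025 genes in all. No window was used for Kif20a, Foxm1, Mcm4, Gins2, Aurkb, Tpx2, Gins1, Ccna2 and Ccne2. The E2F-type element stood in 8 of 16 replication windows, 3 of 15 mitosis windows and 10.9% of all genes. The CHR stood in 3 of 16, 12 of 15 and 21.7% of all genes, and the CCAAT box in 10 of 16, 14 of 15 and 41.1%. In the 250 bases before the start alone, the CHR was in 46.7% of mitosis windows. A match is a description of letters and not a site.

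**Figure D5:**
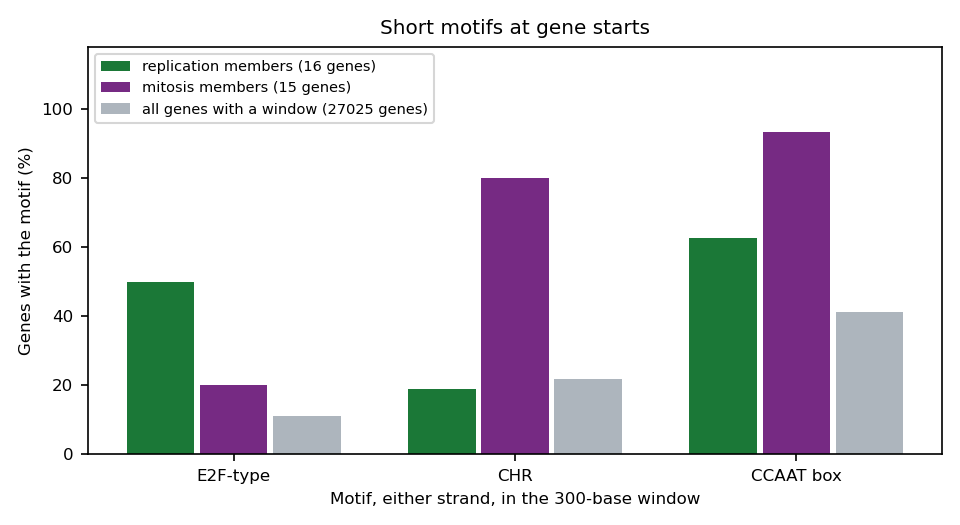
Bars give the percentage of genes with at least 1 match of each element on either strand in the 300-base window, for 16 replication genes, 15 mitosis genes and all 27025 genes with a window. The E2F-type element is in 8 of 16 replication genes and the CHR in 12 of 15 mitosis genes.

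Windows are shown for 4 genes: Mcm6 and Mcm2, the replication genes called in iCEC with any library left out, Bub1, a mitosis gene that fell in pCEC, and Kif23, the mitosis gene that rose there. Capitals mark the matches, read 5′ to 3′ on the strand of the gene, so that a CCAAT box on the other strand appears as ATTGG. Mcm6 holds 5 E2F-type matches, 4 of them in 2 overlapping pairs, and 2 CCAAT boxes, whereas Mcm2 holds 0 E2F-type matches, 1 CHR and 1 CCAAT box. Bub1 and Kif23 each hold 1 CHR, 14 and 2 bases after the start. The windows are at chr1:128359656-128359955 (Mcm6), chr6:88898731-88899030 (Mcm2), chr2:127831810-127832109 (Bub1) and chr9:61946750-61947049 (Kif23), all on the minus strand.
Mcm6: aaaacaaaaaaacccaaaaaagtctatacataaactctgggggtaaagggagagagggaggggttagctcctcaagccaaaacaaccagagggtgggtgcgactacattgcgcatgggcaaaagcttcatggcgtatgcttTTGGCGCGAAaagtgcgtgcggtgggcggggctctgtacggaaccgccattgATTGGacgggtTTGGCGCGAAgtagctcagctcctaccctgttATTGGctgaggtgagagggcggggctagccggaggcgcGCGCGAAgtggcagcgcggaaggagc
Mcm2: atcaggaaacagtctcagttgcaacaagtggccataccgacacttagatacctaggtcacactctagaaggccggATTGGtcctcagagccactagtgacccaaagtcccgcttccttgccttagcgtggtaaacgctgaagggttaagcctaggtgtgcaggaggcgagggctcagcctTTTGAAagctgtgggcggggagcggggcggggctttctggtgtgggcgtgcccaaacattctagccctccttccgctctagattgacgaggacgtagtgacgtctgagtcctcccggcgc
Bub1: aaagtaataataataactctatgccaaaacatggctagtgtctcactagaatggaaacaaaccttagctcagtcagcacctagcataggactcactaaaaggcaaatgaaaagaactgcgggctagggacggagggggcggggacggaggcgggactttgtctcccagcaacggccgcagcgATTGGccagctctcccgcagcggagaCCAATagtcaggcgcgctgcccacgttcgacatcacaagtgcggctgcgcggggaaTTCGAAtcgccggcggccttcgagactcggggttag
Kif23: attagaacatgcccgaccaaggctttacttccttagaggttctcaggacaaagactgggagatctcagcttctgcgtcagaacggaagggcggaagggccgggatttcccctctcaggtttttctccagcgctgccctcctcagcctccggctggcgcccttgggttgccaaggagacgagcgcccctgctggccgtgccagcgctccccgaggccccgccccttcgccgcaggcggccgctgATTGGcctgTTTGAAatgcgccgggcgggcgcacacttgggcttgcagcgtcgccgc

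Other replication genes, 48 in a wider list of origin, polymerase, clamp loader and nucleotide supply genes, were counted beside the members. In iCEC against pNCC 15 of 48 fell and 0 rose, against 15.1% and 16.1% of all genes, with a median of -0.85. Without iCEC 3, 24 fell and 1 rose, against 21.4% and 23.0%. Without iCEC 1, 9 fell, against 13.3% of all genes. Without iCEC 2, 14 fell, where 2356 genes in all did, against 2463 (15.1%) with no library left out. Without pNCC 1, pNCC 2 and pNCC 3 in turn, 4, 1 and 2 fell, against 7.61%, 7.12% and 8.36% of all genes. Cdc7 and Dbf4, kinase and activator that together start the loaded helicase, were 4.89-fold and 2.84-fold lower (edgeR adjusted p = 0.00197 and 0.0155). Cdc7 had 3.76, 4.04 and 3.33 CPM in iCEC and 16.7, 17.4 and 19.4 CPM in pNCC, with no overlap, and was called with any 1 library left out, while Dbf4 was lost without pNCC 2 or pNCC 3 (0.0659 and 0.0555). Orc3 of the origin recognition complex and Topbp1, which helps to load Cdc45, were 1.76-fold and 2.36-fold lower (edgeR adjusted p = 0.00918 and 0.0197), and lost without pNCC 2 (0.0558 and 0.079), Topbp1 also without pNCC 3 (0.076). In pCEC against pNCC 12 fell and 7 rose, against 32.2% and 30.3% of all genes, with a median of -0.11. In the fit over all 9 libraries 4 of the 48 fell and 4 rose, against 23.3% and 23.9% of all genes. Dbf4 was 3.39-fold and the primase subunit Prim2 2.00-fold lower, while the polymerase δ subunit Pold3 was 1.90-fold and the primase subunit Prim1 1.72-fold higher (edgeR adjusted p = 0.000228, 0.0027, 0.000208 and 0.00225). In iCEC against pCEC 7 fell and 0 rose, against 9.92% and 10.5% of all genes, among them the nucleotide enzyme Dck (2.42-fold), the helicase Recql4 (4.61-fold) and the histone mRNA binding protein Slbp (1.84-fold), at edgeR adjusted p of 0.0121 to 0.0284, each lost without pCEC 1 and without pCEC 2 (0.0545 to 0.115). Recql4 and Slbp were also lost without pCEC 3 (0.0737 and 0.105), and Slbp without iCEC 1 (0.0661).

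Of 55 other mitosis genes, 5 fell and 2 rose in iCEC against pNCC, against 15.1% and 16.1% of all genes, with a median of -1.39. Without iCEC 3, 31 fell and 2 rose, against 21.4% and 23.0%. Without iCEC 1, 2 fell, against 13.3% of all genes. Without iCEC 2, 8 fell, where 2356 genes in all did, against 2463 (15.1%) with no library left out. Without any 1 pNCC library 0 fell, against 7.12% to 8.36% of all genes. The condensin subunits Smc2 and Ncapd2 were 3.68-fold and 3.02-fold lower (edgeR adjusted p = 0.0193 and 0.0346) and were lost without any 1 pNCC library (0.0546 to 0.114). Those that rose were the centromere protein Cenpm and securin, Pttg1. Cenpm had 18.2, 33.3 and 17.1 CPM in iCEC, 6.86, 8.22 and 6.95 CPM in pCEC and 5.44, 5.98 and 4.82 CPM in pNCC. It was above both other groups in every iCEC library, 4.18-fold against pNCC (edgeR adjusted p = 0.00851) and 3.06-fold against pCEC (0.0197, and 0.0755 to 0.0888 without any 1 pCEC library). Pttg1 was 1.81-fold higher in iCEC (edgeR adjusted p = 0.0224) but was lost without iCEC 1, at 0.0545, and without 4 other libraries. In pCEC against pNCC 35 fell and 2 rose, against 32.2% and 30.3% of all genes, with a median of -0.75. In the fit over all 9 libraries 6 of the 55 fell and 1 rose, against 23.3% and 23.9% of all genes. Cks1b, a small subunit of cyclin-dependent kinases, was 3.42-fold lower, the spindle protein Hmmr 3.30-fold, Smc2 3.89-fold and the kinesin Kif20b 2.35-fold (edgeR adjusted p of 4.59e-05 to 0.000136). In iCEC against pCEC 1 of 55 rose, Cenpm, and 0 fell, against 10.5% and 9.92% of all genes.

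Among the regulators of these genes, 20 E2F, Rb and MuvB genes, the number called was near the share over all genes. In iCEC against pNCC 5 fell and 2 rose, where 31.3% of all genes were called, in pCEC against pNCC 6 fell and 7 rose, where 62.5% were, and in iCEC against pCEC 3 fell and 2 rose, where 20.4% were. Rb1, the retinoblastoma protein that holds E2F back, had 38.6, 31.9 and 44.3 CPM in iCEC, 50.8, 53.1 and 48.8 CPM in pCEC and 23.1, 18.9 and 20.1 CPM in pNCC. It was higher in iCEC, 1.803-fold (edgeR adjusted p = 0.0159, and 0.0508 to 0.0936 without any 1 pNCC library), and in pCEC, 2.46-fold (9.46e-05). Myb had 1.67, 1.79 and 3.12 CPM in iCEC, 8.98, 8.37 and 8.52 CPM in pCEC and 0, 0.139 and 0.23 CPM in pNCC, so pNCC was at or near the limit of detection; its edgeR adjusted p was 0.0257 in iCEC and 0.000225 in pCEC, both against pNCC, and 0.0179 between iCEC and pCEC. Without pNCC 2 or pNCC 3 the iCEC call was lost (0.124 and 0.0728), and without any 1 pCEC library that between iCEC and pCEC (0.0706 to 0.0836). In iCEC the repressor E2f6 and the histone-binding protein Rbbp4 were 1.93-fold and 1.59-fold lower (edgeR adjusted p = 0.0122 and 0.0172), each lost without any 1 pNCC library (0.0547 to 0.0918). In pCEC E2f3 was 2.58-fold lower and the E2F partner Tfdp1 1.78-fold lower than in pNCC (edgeR adjusted p = 0.000336 and 0.00149). In iCEC against pCEC Mybl1 and E2f5 were 5.03-fold and 2.36-fold higher and the pocket protein Rbl1 1.83-fold lower (edgeR adjusted p = 0.0175, 0.0255 and 0.0252), all lost without any 1 pCEC library (0.0533 to 0.108), and Rbl1 also without iCEC 1 or iCEC 2 (0.0557 and 0.053).

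Among 20 G1 cyclins, kinases and inhibitors, of which 19 were tested, 6 rose and 4 fell in iCEC against pNCC, where 16.1% of all genes rose and 15.1% fell. In pCEC against pNCC 5 rose and 7 fell, against 30.3% and 32.2%, and in iCEC against pCEC 5 rose and 0 fell, against 10.5% and 9.92%. Ccnd1, cyclin D1, had 396, 253 and 1808 CPM in iCEC, 343, 393 and 363 CPM in pCEC and 91.6, 117 and 86.0 CPM in pNCC. The library lowest in mitosis genes, iCEC 3, was the highest in cyclin D1. Ccnd1 was higher in pCEC than in pNCC, 3.73-fold (edgeR adjusted p = 4.27e-05), and in iCEC than in pNCC at a log2 fold change of 2.98 (edgeR adjusted p = 0.0283, and 0.098 to 0.109 without any 1 pNCC library). Without iCEC 3 the log2 fold change of Ccnd1 in iCEC was 1.70 (edgeR adjusted p = 0.00342). Cdkn1c, the inhibitor p57, was 34.5-fold lower in iCEC (20.3-fold without pNCC 1), Skp2, which marks the inhibitor p27 for degradation, 3.799-fold lower and cyclin D3 (Ccnd3) 2.48-fold lower, and the antiproliferative gene Btg1 was 2.82-fold higher (edgeR adjusted p = 0.005, 0.00954, 0.0183 and 0.00629). Ccnd3 was lost without any 1 pNCC library (0.0644 to 0.0669), and the other 3 were called with any 1 library left out. Cyclin D2 (Ccnd2) and its kinase Cdk4 were 3.799-fold and 2.84-fold lower in pCEC than in pNCC (edgeR adjusted p = 4.45e-05 and 5.28e-05). Cdkn2a, the locus of p16 and p19Arf, had 237, 0.455 and 76.9 CPM in iCEC, 0.176, 0.357 and 0.162 CPM in pCEC and 14.5, 10.5 and 12.6 CPM in pNCC. It was thus near 0 in iCEC 2 and above pNCC in iCEC 1 and iCEC 3, and 52.5-fold lower in pCEC than in pNCC (edgeR adjusted p = 1.49e-05); iCEC against pCEC gave an edgeR adjusted p of 0.0327, lost without iCEC 1 (0.0623) or any 1 pCEC library (0.119 to 0.123). The inhibitor Cdkn1a (p21), Btg1 and Myc were 2.28-fold, 3.98-fold and 2.57-fold higher in iCEC than in pCEC (edgeR adjusted p = 0.0268, 0.0063 and 0.0369), of which Cdkn1a and Myc were lost without iCEC 1 or any 1 pCEC library (0.0509 to 0.111), and Myc also without iCEC 2 (0.072).

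The anaphase-promoting complex ends mitosis by marking cyclin B and securin for degradation. Of 14 genes for its subunits and regulators, 5 fell and 0 rose in iCEC against pNCC, against 15.1% and 16.1% of all genes. Cdc16 and Anapc4 were 2.22-fold and 2.15-fold lower (edgeR adjusted p = 0.00288 and 0.00328) and were called with any 1 library left out, and Cdc27 and Anapc5 were 1.89-fold and 2.31-fold lower (0.0128 and 0.0156) but lost without any 1 pNCC library (0.0504 to 0.0651). In iCEC 3 Cdc16 had 78.5 CPM, between the 79.2 and 65.6 CPM of the other iCEC libraries, unlike the mitosis set, in which iCEC 3 was lowest throughout. In pCEC against pNCC 7 fell and 2 rose, against 32.2% and 30.3% of all genes, led by Cdc16 (3.27-fold lower), Anapc4 (2.59-fold), Cdc27 (2.52-fold) and Anapc1 (2.43-fold), at edgeR adjusted p of 1.45e-05 to 0.000101. In iCEC against pCEC 1 rose, against 10.5% of all genes, Cdc16, 1.48-fold (edgeR adjusted p = 0.0475, and 0.11 to 0.196 without iCEC 1 or any 1 pCEC library). Of 25 replication-dependent histone genes, whose messages are not polyadenylated, 23 were at or below 10 CPM in every library. These 23 summed to 13.8, 16.1 and 7.86 CPM in iCEC, 4.37, 6.97 and 6.54 CPM in pCEC and 4.12, 5.57 and 7.09 CPM in pNCC. In this sum the libraries labelled total RNA, pCEC 2 and pCEC 3, were within the range of the libraries labelled polyA RNA, but above pCEC 1. All 25 genes summed to 104.3 CPM in pCEC 1, 179.3 CPM in pCEC 2 and 150.8 CPM in pCEC 3. Whether the library type differed was not tested. Against pNCC, 1 of the 8 tested rose in iCEC and 1 of the 7 tested in pCEC, where 16.1% and 30.3% of all genes rose. Both calls were of H1f4, which was 8.87-fold higher in iCEC and 5.18-fold higher in pCEC (edgeR adjusted p = 0.00474 and 0.00208).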

How the data were processed

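Per the labels' protocols, libraries were made with the NEBNext Ultra kit and read as pairs of 150 bases. The deposited table holds whole-number counts per gene symbol made by the authors, with no normalization. Per the submitters' processing notes the build was mm10 and edgeR was used; its role and version, the aligner, the counting tool, its use of strand and the annotation are not given in the sources used here. Groups and replicate numbers came from the sample titles. The members and all gene lists were chosen with earlier results of these data known.

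Each pair of groups was fitted on its 6 libraries in R 4.3.3 with edgeR 4.0.16 (filterByExpr, TMM, robust quasi-likelihood fit, 2-sided test, Benjamini-Hochberg adjustment over all genes tested, threshold 0.05). All 40 members passed the filter in each comparison. SE was derived from each gene's fold change and F statistic and restates the test. The fit was tested on simulated data. Alternatives were DESeq2 1.42.0 size factors and its Wald test, library totals, no filter, all 9 libraries in one fit, a replicate block, each library left out, pCEC by its polyA library alone, and a pseudocount of 2 CPM for set levels. Same-numbered libraries were not treated as pairs, and whether they share an origin is not given in the sources used here. No 2 libraries were duplicates.

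All 40 members are named. Values by library are given for the 3 called members with the smallest adjusted p in each set and comparison, MCM2-7, Mki67, Pcna, Top2a, E2f1, Foxm1, Ccne1 and Ccne2, and up to 4 called genes are named per other list and comparison, of which 1 is not reported here. Floors of 3 counts cover counting error only. Positions and exon lengths came from GENCODE M21 and promoter windows from RefSeq, which were read in Python 3.11.15 with pandas 2.3.3.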

Additional observations from a re-analysis of the deposited data

Results flagged for a closer look

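The following results differed between iCEC and pCEC in effect against the same pNCC libraries. For Mcm2 and Mcm6 the difference itself passed the test, as the contrast of iCEC against pCEC: the log2 fold change was -1.06 for Mcm2 (edgeR adjusted p = 0.0357) and -0.83 for Mcm6 (edgeR adjusted p = 0.0477), lower in 3 of 3 iCEC libraries than in any pCEC library. Both were lost without iCEC 1, iCEC 2 or any 1 pCEC library, at 0.05 to 0.119 for Mcm2 and 0.0704 to 0.175 for Mcm6. Kif23 stood out because every iCEC library was below and every pCEC library above all pNCC libraries. The rise in pCEC against pNCC (edgeR adjusted p = 0.00836) was lost in the fit over all 9 libraries (0.516) and with pCEC 1 as the only pCEC library (0.178). Its log2 fold change of iCEC against pCEC was -1.96, which did not pass (edgeR adjusted p = 0.228), and passed without iCEC 3 (-1.36, edgeR adjusted p = 0.0137). No explanation was tested.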

How the results depend on the processing

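Over all members, comparisons and alternatives, 1334 fold changes kept direction and side of the threshold, 89 lost the call, 62 gained it and 35 changed sign, none of them called as reported or under the alternative. With each library left out in turn, the calls in iCEC against pNCC ran from 2322 to 7684 over all genes, 2 to 9 in the replication set and 0 to 16 in the mitosis set. In pCEC against pNCC they ran from 9207 to 10687 over all genes and from 2 to 10 in the replication set. In iCEC against pCEC they ran from 1131 to 4974 over all genes, 0 to 4 in the replication set and 0 to 1 in the mitosis set. Mitosis calls in iCEC against pNCC, 0 as reported, were 1 with DESeq2 size factors, 1 with library totals, 5 with the DESeq2 test and 3 with all 9 libraries in one fit. All were lower, where 2463 genes in all were called lower as reported. In the same order of alternatives, 2561, 2381, 3317 and 3050 genes in all were called lower. Replication calls in pCEC against pNCC, 6 as reported, were 11 with library totals and 1 with all 9 libraries, which also left 2 of 19 mitosis calls. Of all genes, 32.2% were called lower there as reported, 35.4% with library totals and 23.3% with all 9 libraries. Replication calls in iCEC against pCEC, 2 as reported among 3327 genes in all, were 1 with library totals and 1 without a filter, among 3481 and 3013. The fit with pCEC by its polyA library alone leaves 1 pCEC library, so its calls in this comparison are not given. Library totals moved the median log2 fold change of all genes by -0.13 in pCEC against pNCC and by 0.12 in iCEC against pCEC. The cause of these shifts was not tested.

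Same-numbered libraries did not deviate together (correlations -0.0811 to -0.0198 in iCEC against pNCC, -0.027 to 0.071 in pCEC against pNCC, -0.218 to -0.0087 in iCEC against pCEC). With the replicate number as a block, 2864 genes and 3 replication members passed in iCEC against pNCC, and 1295 genes and 0 replication members in iCEC against pCEC. In the 250 bases before the start alone, the CHR was in 46.7% of mitosis windows and 19.6% of all genes, the E2F-type element in 9.01% and the CCAAT box in 37.5% of all genes. Every member had at least 33 counts in every library, so that counting error was small beside the spread of the iCEC libraries.

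The sign changes fell on 17 log2 fold changes. With each library left out in turn, in iCEC against pCEC, Cdk1 ran from -0.60 to 0.45, Cdc20 from -0.70 to 0.31, Aurka from -0.83 to 0.24, Bub1 from -0.82 to 0.15, Bub1b from -0.89 to 0.015, Plk1 from -1.14 to 0.011, Tpx2 from -0.65 to 0.31, Birc5 from -1.08 to 0.39 and Rrm2 from -0.90 to 0.12, each highest without iCEC 3. Cenpe ran there from -0.42 to 0.62 and Mcm7 from -0.098 to 0.20. In pCEC against pNCC Gins1 ran from -0.11 to 0.27, Tk1 from -0.11 to 0.22 and Rrm2 from -0.51 to 0.015, and in iCEC against pNCC Pcna ran from -0.28 to 0.044. With pCEC by its polyA library alone, Gins1, Tk1 and Mcm5 were at -0.33, -0.20 and -0.064 against pNCC, and in iCEC against pCEC Ccnb1 was at 0.011, Cdk1 at 0.092, Cdc20 at 0.56, Aurka at 0.22, Plk1 at 0.025 and Tpx2 at 0.16. With library totals Gins1 and Tk1 were at -0.072 and -0.067 in pCEC against pNCC, and Cdk1 was at 0.018 in iCEC against pCEC. In that comparison Mcm7 was at -0.012 with all 9 libraries in one fit, and Cenpe at -0.54 with the replicate block.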
